A study of Mus musculus with 4 samples.

Results

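Abca9 and its neighbours Abca8b, Abca8a, Abca6 and Abca5 form a cluster of transporter genes on mouse chromosome 11, and their mRNA levels were examined in brown adipose tissue (BAT) of Sox4f/f mice and of mice labelled Sox4-MKO. The 5 genes were chosen by symbol and by shared position, with earlier results of the same genotype comparison known, so their differences between genotypes are given as a description without a test. They are 5 of the 55387 rows of the deposited tables, and all 5 are among the 12877 genes that passed the filter on low values, a mean FPKM over 1 in either genotype. FPKM counts fragments relative to the length of the transcript and to the depth of the library, so levels of different genes can be set side by side.

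The libraries came from whole BAT of male littermates aged 15 weeks, 2 mice per genotype with 1 library each. The control mice carry Sox4 alleles flanked by loxP sites, and the labels call them WT although the study calls them Sox4f/f. Sox4-MKO mice carry the same floxed alleles together with Myf5-Cre, a recombinase active in the embryonic lineage that gives brown adipocytes and skeletal muscle, so adipocytes of that lineage are targeted while other cells of the tissue need not be. The labels give the cell type as adipocytes of BAT, but the source is the whole tissue and stromal, immune, vascular and muscle genes were measured in it. With 2 mice against 2, an exact permutation test of a single gene cannot give a two-sided p below 0.333.

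The targeted gene was read first. Sox4, a high mobility group transcription factor, had 1.98 and 1.06 FPKM in Sox4f/f mice 1 and 2, and 0.981 and 3.06 FPKM in Sox4-MKO mice 1 and 2. Sox4-MKO mouse 1 had the lowest level and Sox4-MKO mouse 2 the highest, so the genotypes overlapped. The difference of 0.20 in log2 had a standard error of 0.43 (limma, adjusted p = 0.843). Leaving out Sox4-MKO mouse 2 gave -0.32 and leaving out Sox4f/f mouse 2 gave -0.07. When Sox4f/f mouse 1 or Sox4-MKO mouse 1 was left out instead, the difference stayed above 0. The mRNA level of Sox4 does not separate the genotypes here, and the genotype names below are those of the labels. The paper reports strongly reduced SOX4 protein in BAT of younger Sox4-MKO mice, which is a different measure from mRNA of the whole tissue.

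ATP-binding cassette (ABC) transporters couple ATP hydrolysis to movement of substrates across membranes, and those of the A subfamily are large single-chain proteins that mostly move lipids. The genes next to Abca9 form a branch of this subfamily found side by side in mammalian genomes. Abca5 is a transporter of lysosomes and late endosomes, Abca8 proteins are linked to cholesterol efflux, and human ABCA6 and ABCA9 are known as genes that respond to cholesterol in macrophages. In adipose tissue such transporters are of interest because adipocytes store free cholesterol beside triglyceride and stromal cells and macrophages share the tissue with them.

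In GRCm38 (GENCODE M21 annotation) the cluster spans 406 kb, from 109932190 to 110337716, and all 5 genes lie on the minus strand in the order Abca8b, Abca8a, Abca9, Abca6 and Abca5. Abca9 (ENSMUSG00000041797.7) covers 110100749 to 110168196, and only 4.77 kb separate it from Abca8a and 8.62 kb from Abca6. The gap between Abca8b and Abca8a is 29.8 kb and that between Abca6 and Abca5 is 17.6 kb. The genes are alike in size, from 63.7 kb for Abca8b to 75.0 kb for Abca6, and the longest coding transcript of each has 39 exons. Besides the 5 transporters, the annotation places 1 gene inside the cluster, the antisense RNA Gm11697 on the plus strand within Abca8b, which was listed at 0 in all 4 libraries.

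Because these genes arose as close relatives, fragments could in principle be shared between them. Of the stretches of 50 bases in the longest coding transcripts, Abca8a shared 105 (1.89%) with Abca8b, and Abca9 shared 13 (0.205%) with Abca6. Abca5 shared 0 stretches with the other members, and none of the 5 shared any with a gene outside the cluster. At 100 bases no stretch was shared by any pair. Shared fragments could therefore affect the levels of Abca8a and Abca8b more than those of the other members. How the authors treated fragments matching several genes is not given in the sources used here.

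RefSeq promoter windows of GRCm38.p6, from 250 bases before to 50 bases after the annotated start, were found for 4 of the 5 genes. They are shown because they are the sequences at the starts of genes whose values differed unequally, and they vary widely in CpG content. All are written 5′ to 3′ on the minus strand, with CpG dinucleotides in capitals. The windows are chr11:110168104-110168403 for Abca9, chr11:110095888-110096187 for Abca8a, chr11:109995796-109996095 for Abca8b and chr11:110337667-110337966 for Abca5.
Abca9: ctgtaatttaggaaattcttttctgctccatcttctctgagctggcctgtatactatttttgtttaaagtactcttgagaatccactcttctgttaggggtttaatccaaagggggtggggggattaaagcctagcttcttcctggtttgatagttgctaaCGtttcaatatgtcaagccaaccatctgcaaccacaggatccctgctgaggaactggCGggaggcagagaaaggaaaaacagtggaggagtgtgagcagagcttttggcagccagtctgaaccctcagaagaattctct
Abca8a: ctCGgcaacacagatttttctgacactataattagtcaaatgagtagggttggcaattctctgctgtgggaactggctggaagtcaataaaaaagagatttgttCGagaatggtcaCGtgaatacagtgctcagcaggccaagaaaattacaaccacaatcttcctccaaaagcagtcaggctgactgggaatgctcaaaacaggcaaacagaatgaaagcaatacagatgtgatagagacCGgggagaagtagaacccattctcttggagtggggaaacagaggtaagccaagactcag
Abca8b: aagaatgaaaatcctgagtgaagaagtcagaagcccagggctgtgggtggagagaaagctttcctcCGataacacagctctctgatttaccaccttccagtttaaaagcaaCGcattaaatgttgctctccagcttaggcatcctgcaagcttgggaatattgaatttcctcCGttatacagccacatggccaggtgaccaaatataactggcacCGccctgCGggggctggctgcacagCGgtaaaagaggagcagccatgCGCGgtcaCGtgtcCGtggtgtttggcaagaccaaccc
Abca5: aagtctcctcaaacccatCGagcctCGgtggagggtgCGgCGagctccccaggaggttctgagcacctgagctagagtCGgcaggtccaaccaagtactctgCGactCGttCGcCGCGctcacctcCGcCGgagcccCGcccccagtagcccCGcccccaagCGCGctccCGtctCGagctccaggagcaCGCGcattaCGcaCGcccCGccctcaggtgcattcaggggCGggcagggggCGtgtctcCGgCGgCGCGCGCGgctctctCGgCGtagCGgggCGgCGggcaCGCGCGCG

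The Abca5 window was CpG rich, with 40 CpG and a GC content of 72.3%. Of the 32851 RefSeq windows of this length, 96.5% had that many CpG or fewer. Abca9 had 2 CpG at 45.3% GC, Abca8a had 4 at 44.3% and Abca8b had 10 at 51.3%, against a median of 7 CpG and 52.7% GC over all windows. Searched on both strands, the GC box GGGCGG was present 5 times in Abca5 and once in Abca8b, and 35.7% of all windows hold it. The E-box CACGTG was present in Abca8b and Abca8a (7.15% of all windows). The SOX-type letters ACAAAG (18.7% of windows) and AACAAT (10.7%), and the letters TATAAA (13.6%) and CCAAT (37.4%) were not found in any of the 4 windows. These are matches of letters within 300 bases and not measurements of binding.

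Abca9 had the largest ratio and the largest log2 fold change between genotypes of the 5 genes. Its level was 2.77 and 2.78 FPKM in Sox4f/f mice 1 and 2, and 5.42 and 5.43 FPKM in Sox4-MKO mice 1 and 2. Both Sox4-MKO libraries were above both Sox4f/f libraries, and the libraries within a genotype were nearly equal. The means of 2.77 ± 0.0048 FPKM for Sox4f/f and 5.42 ± 0.0053 FPKM for Sox4-MKO (SD, n = 2 each) gave a ratio of 1.96. On the log2(FPKM + 1) scale, which understates changes of low genes, the log2 fold change was 0.77 with a standard error of 0.16. This placed Abca9 at rank 970 of the 12877 genes ordered from the highest log2 fold change downward.

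The depth behind Abca9 was modest. The estimated number of fragments was 237 and 213 in the Sox4f/f libraries, and 434 and 551 in the Sox4-MKO libraries. The corresponding 95% intervals, which are exact Poisson intervals and cover counting error only, ran from 2.42 to 3.18 FPKM over the Sox4f/f libraries and from 4.92 to 5.96 FPKM over the Sox4-MKO libraries, and the intervals of the genotypes did not touch. The agreement within genotypes was much closer than these intervals. The pooled SD of Abca9 (0.00155 on the log2 scale) was larger than that of only 0.00777% of the tested genes, so it understates the error of its mean, and the standard error above instead draws on the spread of all genes.

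Abca8a, the most abundant of the 5 genes, also stood higher in Sox4-MKO. Its ratio was smaller than that of Abca9, although its means lay farther apart in FPKM. It had 14.4 and 15.5 FPKM in Sox4f/f mice and 18.0 and 18.7 FPKM in Sox4-MKO mice. The genotypes did not overlap, although the gap between the nearest libraries was small beside the level itself. The mean was 14.9 ± 0.83 FPKM against 18.4 ± 0.46 FPKM (SD, n = 2 each), a ratio of 1.23 and a log2 fold change of 0.28 with a standard error of 0.13. Between 1049 and 1669 fragments lay behind each value, the deepest coverage of the cluster.

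Abca8b, the closest relative of Abca8a by shared sequence, was far lower and its genotypes overlapped. Its levels were 1.64 and 1.91 FPKM in Sox4f/f mice and 2.43 and 1.80 FPKM in Sox4-MKO mice. Sox4-MKO mouse 1 was the highest of the 4 libraries, whereas Sox4-MKO mouse 2 lay between the control mice. The log2 fold change of 0.16 (standard error 0.22) was smaller than its error, and after quantile normalization it was -0.0035. Abca8a exceeded Abca8b in every library, by ratios of 8.77 and 8.15 in Sox4f/f and 7.41 and 10.4 in Sox4-MKO.

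Abca6 was the least abundant member. It had 0.571 and 0.688 FPKM in Sox4f/f mice and 1.45 and 0.825 FPKM in Sox4-MKO mice. The genotypes did not overlap, but most of the difference came from Sox4-MKO mouse 1, and the other Sox4-MKO mouse was close to the controls. The mean was 0.629 ± 0.083 FPKM against 1.14 ± 0.44 FPKM (SD, n = 2 each), a ratio of 1.81. On the log2(FPKM + 1) scale, which understates changes of low genes, this was 0.38 with a standard error of 0.27, and 0.16 without Sox4-MKO mouse 1. Only 40 and 43 fragments lay behind the Sox4f/f values and 95 and 69 behind the Sox4-MKO values. The counting intervals of the genotypes overlapped, reaching up to 0.93 FPKM in Sox4f/f mouse 2 and down to 0.64 FPKM in Sox4-MKO mouse 2. Abca6 passed the filter on low values only through its level in Sox4-MKO, so a higher level there was a condition of its being included.

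Abca5, at the end of the cluster with the highest coordinates and with the CpG-rich window shown above, had means that differed between genotypes by less than their error. It had 2.70 and 1.76 FPKM in Sox4f/f mice and 2.02 and 2.36 FPKM in Sox4-MKO mice. Both Sox4-MKO libraries lay between the control libraries. The mean was 2.23 ± 0.67 FPKM against 2.19 ± 0.24 FPKM (SD, n = 2 each), and on the log2 scale the difference was -0.0045 (standard error 0.24). Its sign turned with the library left out, from -0.22 without Sox4f/f mouse 2 to 0.21 without Sox4f/f mouse 1.

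**Figure D1:**
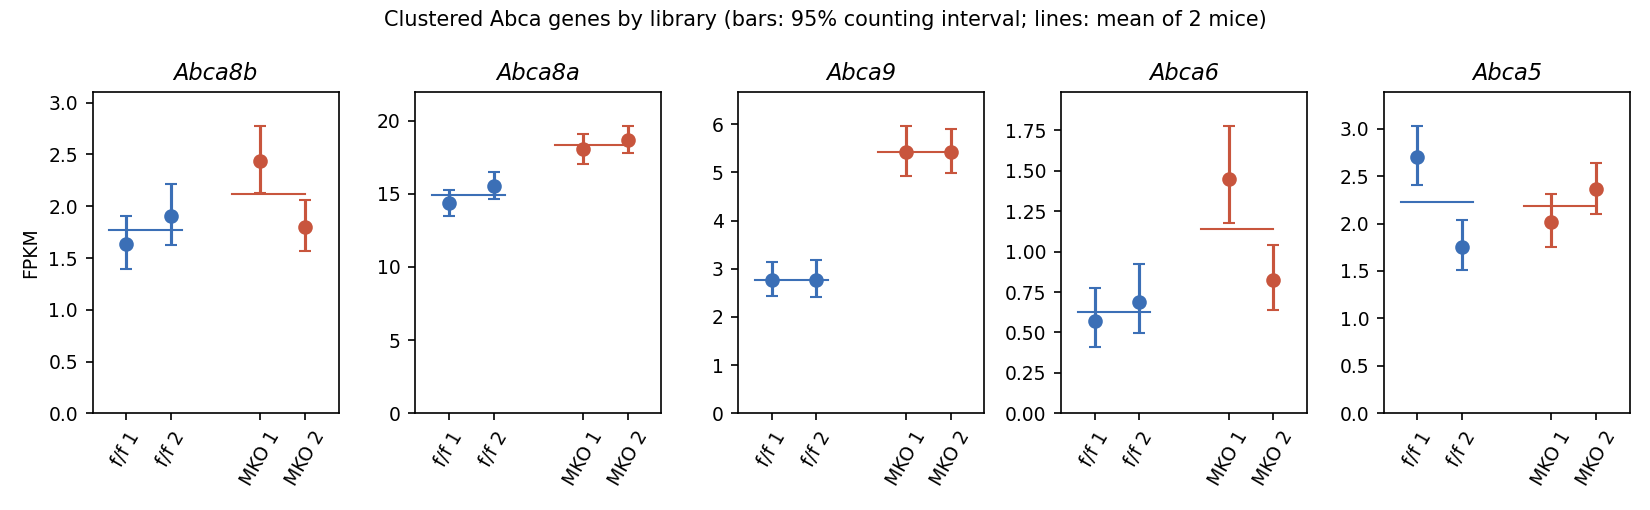
FPKM of the 5 clustered Abca genes in each of the 4 libraries, one panel per gene with its own axis from 0; bars are 95% counting intervals and horizontal lines the mean of 2 mice. The intervals of the genotypes are apart for Abca9 (2.77 and 2.78 against 5.42 and 5.43 FPKM) and, by a narrower gap, for Abca8a (up to 16.5 against 17.1 FPKM and above), while the values of Abca5 and Abca8b overlap. For Abca6 the values are apart but the intervals overlap.

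Counted together, 3 of the 5 genes (Abca9, Abca8a and Abca6) had both Sox4-MKO libraries above both Sox4f/f libraries, 0 had both below, and 2 overlapped. Abca6 is in this count and in the median below although only its level in Sox4-MKO brought it past the filter. Over all 12877 tested genes, 21.7% were higher without overlap and 29.6% were lower without overlap. The median log2 fold change of the 5 genes was 0.28, beside -0.05 over all tested genes, and it was 0.12 after quantile normalization. The log2 fold change was above 0 for 4 of the 5, and for 3 after quantile normalization.

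**Figure D2:**
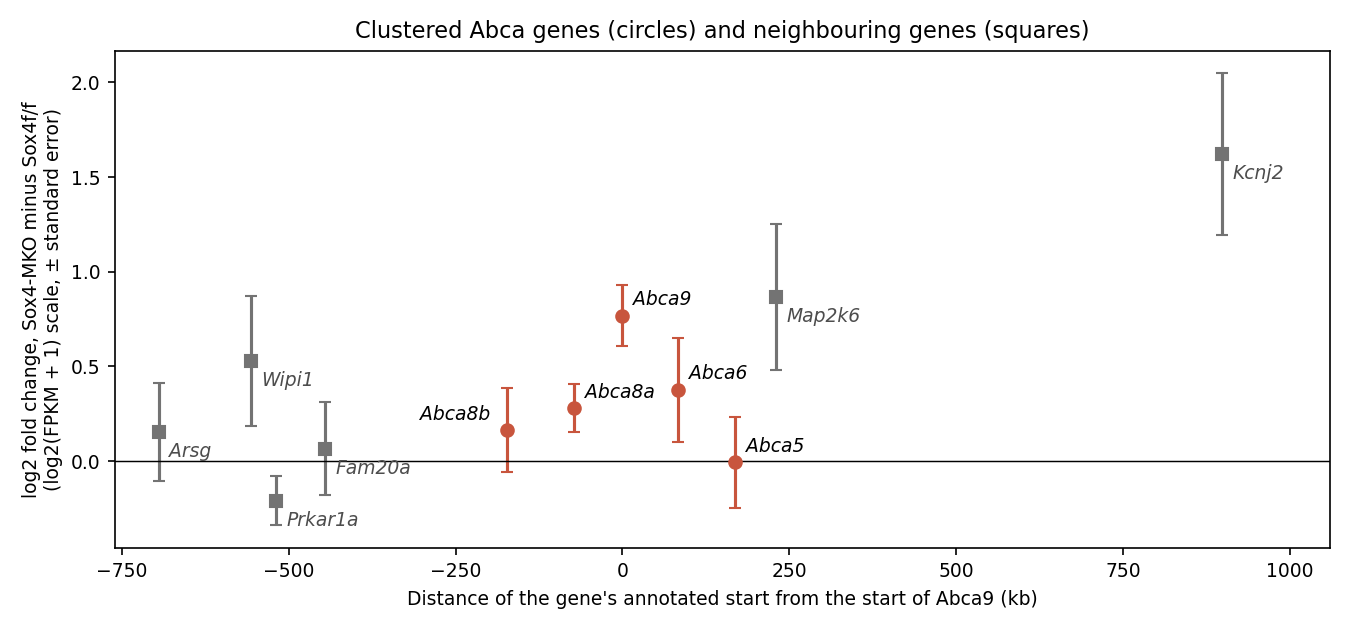
Log2 fold change on the log2(FPKM + 1) scale (y axis, Sox4-MKO minus Sox4f/f, bars ± standard error) against the distance of each gene's start from that of Abca9 in kb (x axis), for the 5 clustered Abca genes (circles) and the tested neighbours except the distant Sox9 and Slc39a11 (squares). The value is highest at Abca9 among the circles (0.77) and near 0 at Abca5 (-0.0045), while Kcnj2 (1.62) is the highest of the squares.

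The makeup of the cluster's mRNA was read in each library, as a description. The summed level of the 5 genes was 22.0 and 22.7 FPKM in Sox4f/f mice and 29.4 and 29.1 FPKM in Sox4-MKO mice. Abca8a made up most of this sum in every library, 61.4% to 68.5%. The share of Abca9 was 12.6% and 12.3% in Sox4f/f mice and 18.5% and 18.7% in Sox4-MKO mice, with no overlap. The share of Abca5 was 12.3% and 7.75% in Sox4f/f mice and 6.87% and 8.11% in Sox4-MKO mice, so those genotypes overlapped.

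Ratios within a library do not depend on the scaling of that library. The ratio of Abca9 to Abca8a, whose genes lie next to each other, was 0.193 and 0.179 in Sox4f/f mice and 0.301 and 0.291 in Sox4-MKO mice. The ratio of Abca9 to Abca5 was 1.03 and 1.58 in Sox4f/f mice and 2.69 and 2.30 in Sox4-MKO mice. Both ratios were higher in each Sox4-MKO library than in each control library. Both are ratios of Abca9, a gene chosen with this comparison known. They describe its level against Abca8a and Abca5 and are not a result separate from it. The ratio of Abca6 to Abca9 overlapped, at 0.206 and 0.248 against 0.268 and 0.152. By level, Abca8a came first, Abca9 the next and Abca6 last in all 4 libraries. Abca5 and Abca8b changed places, with Abca5 above Abca8b in Sox4f/f mouse 1 and Sox4-MKO mouse 2 and below it in the others, so their order does not hold beyond the spread between mice. In Sox4f/f mouse 1 the levels of Abca9 and Abca5 were also nearly equal.

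**Figure D3:**
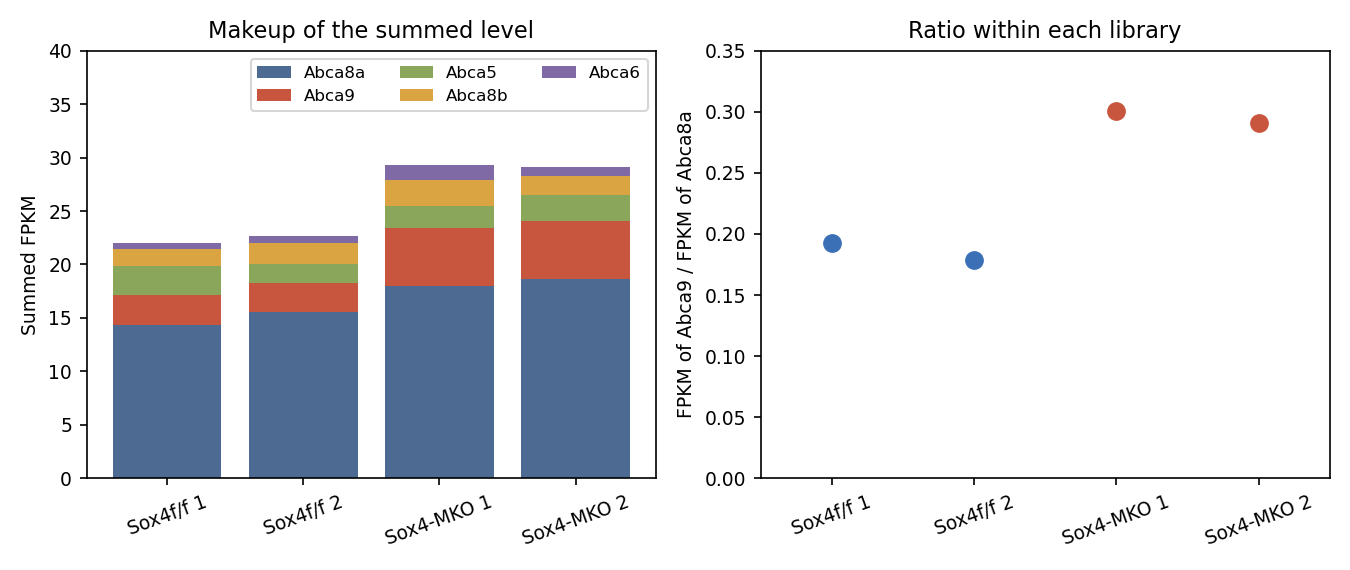
Left, summed FPKM of the 5 clustered Abca genes in each library, stacked by gene; right, the ratio of Abca9 to Abca8a in FPKM in each library. The stack reaches 22.0 and 22.7 FPKM in Sox4f/f and 29.4 and 29.1 FPKM in Sox4-MKO, and the ratio lies at 0.193 and 0.179 against 0.301 and 0.291.

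The ABCA genes outside the cluster were read for comparison. Of 11 ABCA genes outside the cluster, 4 passed the filter on low values, and their median log2 fold change was -0.10, or -0.20 without Sox4-MKO mouse 1 and -0.0058 when the other Sox4-MKO mouse was left out. Calls here are genes with an unadjusted p under 0.05 in limma, which held for 7.95% of all tested genes as higher and 8.28% as lower. After Benjamini-Hochberg adjustment 0 of the 12877 genes passed (2090 had an unadjusted p under 0.05), and the smallest adjusted p was 0.191. Among the 4 ABCA genes, 0 were called, and 1, Abca2, was called lower without Sox4-MKO mouse 1.

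Abca1, the exporter that loads cholesterol and phospholipid onto apolipoprotein A-I, had 15.0 and 13.9 FPKM in Sox4f/f mice and 14.5 and 17.5 FPKM in Sox4-MKO mice, which overlapped (log2 fold change 0.14, standard error 0.15, adjusted p = 0.679, between 0.0091 and 0.26 when a library was left out). Abca2, an endolysosomal transporter abundant in myelinating cells, had 28.0 and 28.2 FPKM in Sox4f/f mice and 27.5 and 17.9 FPKM in Sox4-MKO mice. Only Sox4-MKO mouse 2 stood well below the controls for Abca2, and its log2 difference of -0.33 (standard error 0.23, adjusted p = 0.505) was -0.62 after leaving out Sox4-MKO mouse 1 and -0.03 after leaving out mouse 2. Abca7, an ABCA1 relative linked to phagocytosis, had 6.14 and 6.02 FPKM against 5.98 and 4.62 FPKM (log2 fold change -0.18, adjusted p = 0.649, and -0.02 without Sox4-MKO mouse 2 or -0.33 without mouse 1). Abca3, the phospholipid transporter of lung surfactant granules, had 7.12 and 8.36 FPKM against 7.86 and 7.32 FPKM (log2 fold change -0.02, adjusted p = 0.956), and its sign turned with the library left out. Of the untested genes, Abca4 had 1.03 and 0.473 FPKM against 0.200 and 0.406 FPKM, Abca13 and Abca17 were above 0 only in Sox4-MKO mouse 1, and Abca12, Abca14, Abca15 and Abca16 were listed at 0 in all 4 libraries.

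**Figure D4:**
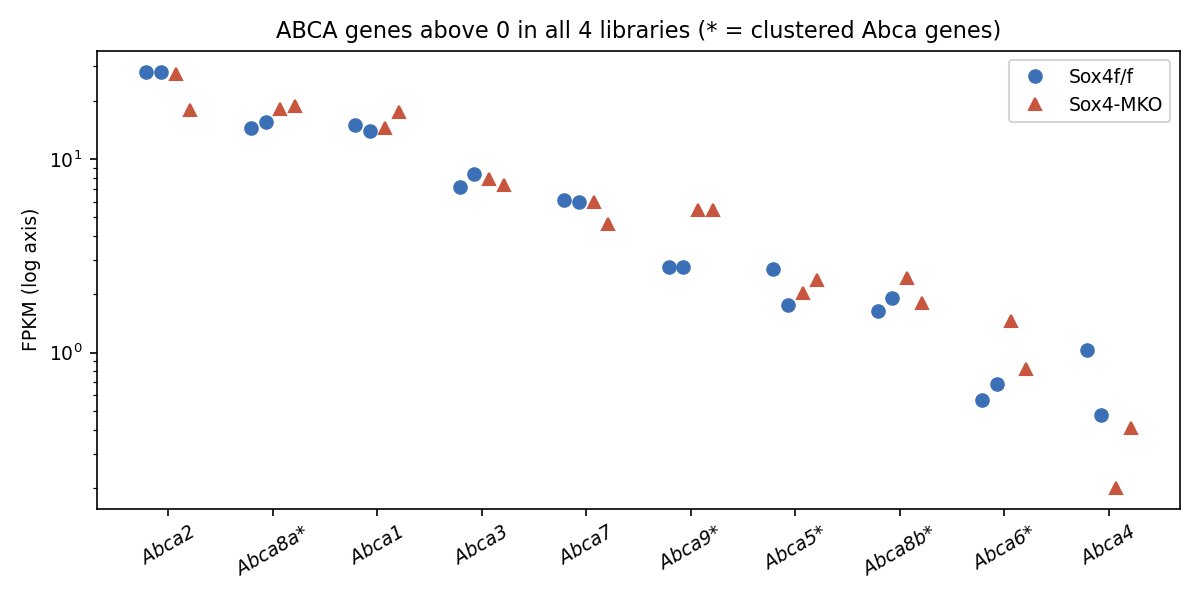
FPKM on a log axis of the ABCA genes above 0 in all 4 libraries, ordered by level, with Sox4f/f libraries as circles and Sox4-MKO libraries as triangles; an asterisk marks the clustered genes. Abca9 is the gene whose triangles (5.42 and 5.43 FPKM) stand farthest above both circles (2.77 and 2.78 FPKM), while Abca1, Abca3, Abca5 and Abca8b overlap.

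Other ABC subfamilies held calls in both directions, beside 7.95% of all tested genes called higher and 8.28% called lower. Of 36 such genes 25 were tested, 4 were called higher and 3 lower, and the median log2 fold change was 0.03, which turned to between -0.18 and -0.04 when any one library was left out. Abcd2, a peroxisomal importer of very long chain fatty acids, had 30.7 and 26.2 FPKM in Sox4f/f mice and 64.3 and 59.7 FPKM in Sox4-MKO mice (log2 fold change 1.10, standard error 0.14, adjusted p = 0.191). Abcg2, an exporter of xenobiotics and urate, had 8.80 and 11.1 FPKM against 16.2 and 16.9 FPKM (log2 fold change 0.69, adjusted p = 0.214). Both were without overlap, as was Abcc5, an organic anion exporter, at 15.9 and 18.9 FPKM against 24.0 and 32.9 FPKM (log2 fold change 0.67, adjusted p = 0.247). In the other direction, Abcc10 had 8.61 and 7.16 FPKM against 5.45 and 3.20 FPKM (log2 fold change -0.77, adjusted p = 0.276), which was -0.46 and no longer called without Sox4-MKO mouse 2. The 7 calls fell to 1 without Sox4f/f mouse 1, and to 2 without Sox4f/f mouse 2 or without Sox4-MKO mouse 2.

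The genes flanking the cluster were read to see whether the difference extended along the chromosome. Over all tested genes 7.95% were called higher and 8.28% lower. Of the 5 protein-coding genes on each side, 8 of 10 were tested, 1 was called higher and 0 lower, and their median log2 fold change was 0.32, which was 0.04 without Sox4-MKO mouse 1 and 0.56 when the other Sox4-MKO mouse was left out. The nearest on the Abca5 side, Map2k6, a kinase of the p38 pathway 61.4 kb away, had 2.01 and 5.05 FPKM in Sox4f/f mice and 7.87 and 5.83 FPKM in Sox4-MKO mice (log2 fold change 0.87, standard error 0.39, adjusted p = 0.355). Its libraries did not overlap, but the control mice differed widely from each other, and the log2 fold change was 0.36 without Sox4f/f mouse 1 and 1.37 without Sox4f/f mouse 2. The single call was Kcnj2, an inward rectifier potassium channel of muscle and other excitable cells, 728 kb away on the same side. Kcnj2 had 0.506 and 0.570 FPKM against 6.02 and 2.19 FPKM (log2 fold change 1.62, standard error 0.43, adjusted p = 0.228). Its log2 fold change was 1.05 without Sox4-MKO mouse 1. Kcnj2 passed the filter only through its level in Sox4-MKO, and it was highest in the library with the highest skeletal muscle markers. The part of muscle RNA in its value was not tested.

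On the Abca8b side the nearest gene, 1700012B07Rik, was listed at 0 in all 4 libraries. Fam20a, a pseudokinase of the secretory pathway, had 1.44 and 0.967 FPKM against 1.42 and 1.18 FPKM and overlapped. Prkar1a, a regulatory subunit of protein kinase A, had 102 and 91.4 FPKM against 79.1 and 88.3 FPKM, lower without overlap (log2 fold change -0.21, adjusted p = 0.47). Wipi1, an autophagy protein, had 6.57 and 6.26 FPKM against 13.9 and 6.68 FPKM, where Sox4-MKO mouse 1 alone stood far above the others and the log2 fold change of 0.53 was 0.05 without it. Arsg, the farthest on that side at 359 kb, had a log2 fold change of 0.15. Sox9 and Slc39a11 lie on the Abca5 side, 2445 and 2907 kb away, and had log2 fold changes of 0.39 and 0.25. The genotypes overlapped for Arsg, Sox9 and Slc39a11, and without Sox4-MKO mouse 1 the values were -0.02, 0.03 and 0.14 in that order. The number of neighbours called was 0 without Sox4f/f mouse 1 and 3 without Sox4-MKO mouse 2, when Wipi1 and Sox9 joined Kcnj2.

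Genes of sterol handling were listed because the A subfamily is tied to cholesterol. Their calls stand beside 7.95% of all tested genes called higher and 8.28% called lower. Of 13 liver X receptor targets and sterol efflux genes, all tested, 3 were called higher and 2 lower, and the median log2 fold change was 0.10, between 0.0091 (without Sox4-MKO mouse 2) and 0.19 (without Sox4f/f mouse 1). Apod, a lipocalin that binds small lipids, had 6.15 and 12.4 FPKM in Sox4f/f mice and 19.4 and 40.8 FPKM in Sox4-MKO mice (log2 fold change 1.58, adjusted p = 0.245), whereas Apoe, the apolipoprotein secreted by macrophages and adipocytes, had 2177 and 2155 FPKM against 1345 and 1414 FPKM (log2 fold change -0.65, adjusted p = 0.196). The libraries of the genotypes did not overlap for either gene, and they lay in opposite directions. After quantile normalization the difference of Apoe was -0.32 and no longer called (unadjusted p = 0.11). The transfer protein gene Pltp and the lipogenic regulator gene Srebf1 had log2 fold changes of 0.55 and 0.47 (adjusted p = 0.247 and 0.269), or 0.36 and 0.31 without Sox4f/f mouse 1. The 5 calls became 0 without Sox4f/f mouse 1, 3 without Sox4f/f mouse 2 or Sox4-MKO mouse 1, and 2 when Sox4-MKO mouse 2 was left out.

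Of 22 genes of cholesterol synthesis and uptake, 21 were tested, 8 were called higher and 1 lower, and the median log2 fold change was 0.57. Sc5d, a desaturase late in the pathway, had 23.5 and 28.2 FPKM in Sox4f/f mice and 49.8 and 76.1 FPKM in Sox4-MKO mice (log2 fold change 1.23, adjusted p = 0.205). Nsdhl, a sterol dehydrogenase, had 9.38 and 11.4 FPKM against 21.7 and 23.2 FPKM (log2 fold change 1.05, adjusted p = 0.196), and Mvd, a decarboxylase of the mevalonate pathway, had a log2 fold change of 0.98 (adjusted p = 0.27). Hmgcs1, which makes the precursor used by HMG-CoA reductase, stood the other way at 225 and 296 FPKM against 76.4 and 140 FPKM (log2 fold change -1.31, adjusted p = 0.222). The 9 calls fell to 3 without Sox4f/f mouse 1 or without Sox4-MKO mouse 2, where the median log2 fold change was 0.34 and 0.385 in that order. Mvd was at 0.60 without Sox4f/f mouse 1.

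The genes whose levels over the 4 libraries were most like those of Abca9 were found by the root mean square difference between centred log2(FPKM + 1) values, and they are a description over 4 libraries only. Echdc1, a decarboxylase that removes ethylmalonyl-CoA, was nearest at 0.010, with 76.6 and 76.3 FPKM in Sox4f/f mice and 130 and 129 FPKM in Sox4-MKO mice. C1ra, a protease of the complement pathway, followed at 0.024, with 6.95 and 6.81 FPKM against 11.9 and 12.2 FPKM. Rasgrp4, B3glct, Sgpp1 and 2010003K11Rik came next, at 0.031, 0.035, 0.036 and 0.046. In all, 88 tested genes outside the cluster lay within 0.1 of Abca9. The other members were farther, at 0.247 for Abca8a, 0.25 for Abca6, 0.323 for Abca8b and 0.418 for Abca5.

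In bulk tissue, fewer cells of a type and less RNA per cell cannot be told apart, so markers of the cell types in BAT were read beside the cluster. For every marker list, the share over all tested genes was 7.95% called higher and 8.28% called lower. Of 20 progenitor and fibroblast markers, all tested and none at 0, 16 were called higher and 1 lower (Ebf2), with a median log2 fold change of 0.95, and 13 to 17 were called when a library was left out. Their summed level was 1140 and 1273 FPKM in Sox4f/f mice and 1887 and 2128 FPKM in Sox4-MKO mice. Col3a1, a fibrillar collagen gene, had 85.8 and 91.1 FPKM against 242 and 221 FPKM (log2 fold change 1.38, adjusted p = 0.191). Col1a1 and Col1a2, the chains of type I collagen, had log2 fold changes of 1.33 and 1.27 (adjusted p = 0.191 for each), and Dpp4, a marker of interstitial progenitors, had 0.750 and 0.466 FPKM against 3.27 and 3.53 FPKM (log2 fold change 1.46, adjusted p = 0.196). Dpp4 passed the filter only through its level in Sox4-MKO, and 15 of the 16 markers called higher passed it in both genotypes. Abca9, like most of these markers, was higher in both Sox4-MKO libraries, and the part of stromal cells in its difference was not tested.

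Of 10 macrophage markers 8 were called higher and 0 lower, with a median log2 fold change of 0.75 and sums of 222 and 326 FPKM in Sox4f/f mice against 468 and 452 FPKM in Sox4-MKO mice. Only 3 were called without Sox4f/f mouse 1, where the median was 0.51, and 4 without Sox4-MKO mouse 1 or without mouse 2 of that genotype. Of 10 brown adipocyte markers 7 were called lower and 0 higher, with a median of -0.86 and sums of 8591 and 8395 FPKM against 4408 and 5033 FPKM. Without either Sox4f/f mouse 4 were called, and after quantile normalization 5 were, when Cox8b was at -0.14 (unadjusted p = 0.716) and Ucp1 at -0.74 (unadjusted p = 0.0566). Of 10 mature adipocyte markers 1 was called higher and 2 lower, with a median of -0.19, which was 0.02 after quantile normalization, and 1 was called without either Sox4f/f mouse. Endothelial, mural and Schwann cell markers, with medians of -0.31, 0.00091 and 0.59, had 1 call in each list. The endothelial call was lower and the mural and Schwann cell calls were higher. When a library was left out these medians ran from -0.51 to -0.09, from -0.13 to 0.12 and from 0.33 to 0.84, in that order.

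Skeletal muscle markers differed most. Of 10, 9 were called higher and 0 lower, with a median log2 fold change of 4.12, and their sums were 181 and 652 FPKM in Sox4f/f mice and 12580 and 2633 FPKM in Sox4-MKO mice. Both Sox4-MKO libraries were thus above both control libraries in muscle RNA, with Sox4-MKO mouse 1 the highest. Without Sox4f/f mouse 1 only 4 of the muscle markers were called. Abca6 and Abca8b were also highest in Sox4-MKO mouse 1, whereas Abca8a was highest in Sox4-MKO mouse 2 and Abca5 in Sox4f/f mouse 1. The log2 fold change of Abca9 was 0.77 without Sox4-MKO mouse 1. Sox4-MKO mouse 2 was still above both control libraries in muscle RNA, so leaving out mouse 1 cannot separate muscle RNA from genotype. The part of muscle RNA in the values of Abca9 and of the other members was not tested. Macrophage, brown adipocyte and stromal marker sums did not overlap between the genotypes, and their part in the values of the cluster was not tested.

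**Figure D5:**
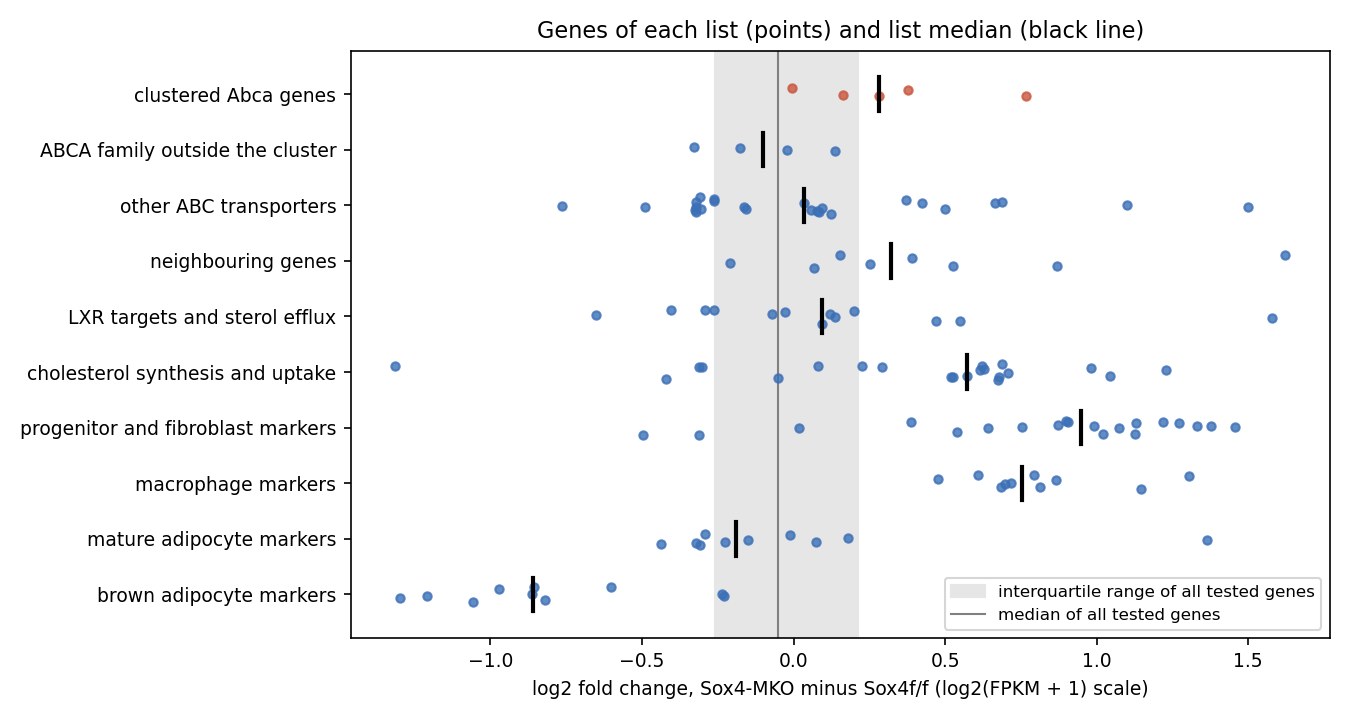
Log2 fold change on the log2(FPKM + 1) scale (Sox4-MKO minus Sox4f/f) of the tested genes of each list shown, with the list median as a black line, the median of all tested genes as a grey line and their interquartile range as a grey band. The skeletal muscle, endothelial, mural and Schwann cell lists are not drawn. The 5 clustered Abca genes run from -0.0045 to 0.77 around a median of 0.28, between the progenitor and fibroblast markers (0.95) and the ABCA genes outside the cluster (-0.10).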

How the data were processed

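RNA sequencing of BAT from 4 mice (2 Sox4f/f, 2 Sox4-MKO) was used, with genotypes taken from the sample labels. The authors deposited 1 FPKM value per gene and library, 55387 rows with 55287 symbols, 66 of them on more than one row (none a clustered Abca gene). The submitters' processing notes name Cufflinks 2.1.1, Cuffdiff and mm10; the aligner, annotation and use of strand are not given in the sources used here. The methods describe TRIzol extraction and a TruSeq library, the labels a column kit and a stranded mRNA library. How the authors counted fragments shared between relatives could move the levels of Abca8a and Abca8b.

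Genes whose mean FPKM exceeded 1 in either genotype were fitted with limma 3.58.1 (R 4.3.3) on log2(FPKM + 1), with a trended prior and no covariate besides genotype. Tests are two-sided with Benjamini-Hochberg adjustment over 12877 genes, and the code was tested on simulated data. Nothing says that same-numbered mice were paired. The members and lists were chosen with earlier results of these data known, so no p is given for the members. Named genes are the members, Sox4, the tested ABCA and neighbouring genes, up to 4 genes per other list with an unadjusted p under 0.05 and no overlap (largest fold change first) and the 6 genes most like Abca9. Ebf2 and Abca genes below the filter were named after their values were seen.

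Depth, estimated from the lowest values of genes with 1 transcript of at least 1500 nt, lay between 12030000 (Sox4f/f mouse 2) and 15900000 fragments (Sox4-MKO mouse 2). The FPKM summed to between 472062 and 578011. Alternatives were other scalings, pseudocounts, filters and priors, a replicate block and leaving out each library. Coordinates are from GENCODE M21 (GRCm38) and promoter windows from RefSeq (GRCm38.p6), matched by symbol.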

Additional observations from a re-analysis of the deposited data

How the results depend on the processing

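The log2 fold change of Abca9 (0.77) was 0.75 with libraries scaled to a common median, 0.65 after quantile normalization, 0.83 after rescaling without mitochondrially encoded genes and Ucp1, 0.94 with a pseudocount of 0.1, and 0.767 to 0.769 when a library was left out. Its mean level in Sox4f/f was 2.80 FPKM with a common median (2.77 as deposited). Abca8a lay between 0.23 and 0.33 when a library was left out and at 0.35 after rescaling. After quantile normalization Abca6 was at 0.12 and Abca8b at -0.0035, and a pseudocount of 0.1 put Abca6 at 0.72. A filter at an averaged FPKM above 5 gives no value for Abca5, Abca6 and Abca8b, and leaves 0 neighbouring genes called. Over all results and alternatives, 361 values stayed within the spread between mice (counts near the main count) and 56 did not. The 361 include values that could not move, because a changed filter, prior or block leaves a gene's log2 fold change as it is. For Abca9, the scalings and the pseudocount of 0.1 each moved it beyond its very small spread between mice. The alternatives for the adipocyte, macrophage, vascular, muscle and Schwann cell lists were added after the data were seen.

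Of all tested genes 2090 were called, and 813 to 2258 when a library was left out, lowest without Sox4f/f mouse 1, with 1063 without Sox4f/f mouse 2. After adjustment 1 gene passed without Sox4f/f mouse 1 and 4 without Sox4f/f mouse 2. Calls when a library was left out ranged from 0 to 1 in the ABCA family outside the cluster, 1 to 6 in other ABC transporters, 0 to 3 in neighbouring genes, 0 to 3 in sterol efflux genes and 3 to 10 in cholesterol synthesis genes. Lower genes made up 51% of the calls, 36.1% after rescaling or without Sox4-MKO mouse 2, and 59% with an averaged FPKM above 5. With a replicate block 1908 genes were called; the deviations of same-numbered mice had a correlation of -0.0122 across 12877 genes, so the numbers are not taken as pairs. The causes were not tested. Depth limits Abca6 most, with 40 to 95 fragments.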
